A study of Homo sapiens with 3 samples.

Results

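The 3 D-type cyclin genes (CCND1, CCND2 and CCND3) and 7 genes of cyclin-dependent kinase (CDK) inhibitors (CDKN1A, CDKN1B, CDKN2A, CDKN2B, CDKN2C, CDKN2D and CDKN3) were followed by every probe that the platform annotation gives to these symbols. They held 11 of the 24460 gene probes (20236 with a symbol) and 10 of the 17559 genes of the array, and all 10 were among the 16030 genes tested. Gene expression had been measured on 3 2-colour 3D-Gene arrays in DLD1-TetOff cells, a human colorectal cancer line in which a transgene is silent in the presence of doxycycline (DOX). FLAG-tagged mouse Cdx1 or Cdx2, homeodomain transcription factors of the intestinal epithelium, was induced by removing DOX, and the arrays set Cdx1-induced cells at 12 h, Cdx1-induced cells at 24 h and Cdx2-induced cells at 24 h each beside the same clone held in 0.5 µg/mL DOX without induction. Every group held 1 array without a dye swap, each transgene was carried by 1 selected clone, and induction always coincided with the absence of DOX and with the Cy3 dye, so these cannot be told apart. The titles, source names and dyes of the samples and the published legend give Cy3 as the induced and Cy5 as the non-induced cells, whereas a cell line entry for each channel says the opposite. The direction used here, induced over non-induced, is therefore likely rather than certain, and all signs would turn if that entry were right.

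D-type cyclins bind CDK4 and CDK6, and the active kinases phosphorylate the retinoblastoma protein RB, which then releases E2F transcription factors and allows entry into S phase. INK4 inhibitors (p16 from CDKN2A, p15 from CDKN2B, p18 from CDKN2C and p19 from CDKN2D) bind CDK4 and CDK6 and hinder their pairing with cyclin D, whereas the CIP/KIP inhibitors p21 (CDKN1A) and p27 (CDKN1B) bind cyclin-CDK complexes, foremost those of CDK2. CDKN3 is of another kind, a phosphatase that removes an activating phosphate from CDK2 and that proliferating cells express most late in the cycle. In the intestinal crypt, cyclin D1 marks dividing cells, and CDK inhibitors accompany the arrest of cells that stop dividing.

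CDKN2B, CDKN2C and CDKN3 rose and CDKN1B fell on the 3 arrays together, while the 3 cyclin D genes, CDKN1A, CDKN2A and CDKN2D did not pass the test (limma, two-sided, adjusted p under 0.05 over all genes). The mean log2 ratio of induced over non-induced cells was 1.09 for CDKN2C, 0.97 for CDKN2B, 0.60 for CDKN3 and -0.31 for CDKN1B. Thus 4 of 10 genes were called, against 30.8% of all genes, with 3 higher (18.7% of all genes) and 1 lower (12.1% of all genes), which at 10 genes is near the background. On single arrays, 1 of the 10 genes was at least 2-fold changed on the Cdx1 12 h array (1.09% of all genes higher and 0.374% lower), 2 on the Cdx1 24 h array (2.29% and 0.892%) and 0 on the Cdx2 array (0.93% and 0.25%). The median of the 10 mean log2 ratios was 0.02, against 0.01 over all genes. The error in these p-values is the scatter among 3 unlike inductions, 2 of them with Cdx1, and not that between cultures of 1 condition. Leaving out the Cdx1 12 h array left only CDKN2B called higher and none called lower. The RNA came from whole cultures, so a change per cell and a change in the share of cells at a stage of the cycle cannot be told apart.

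**Figure D1:**
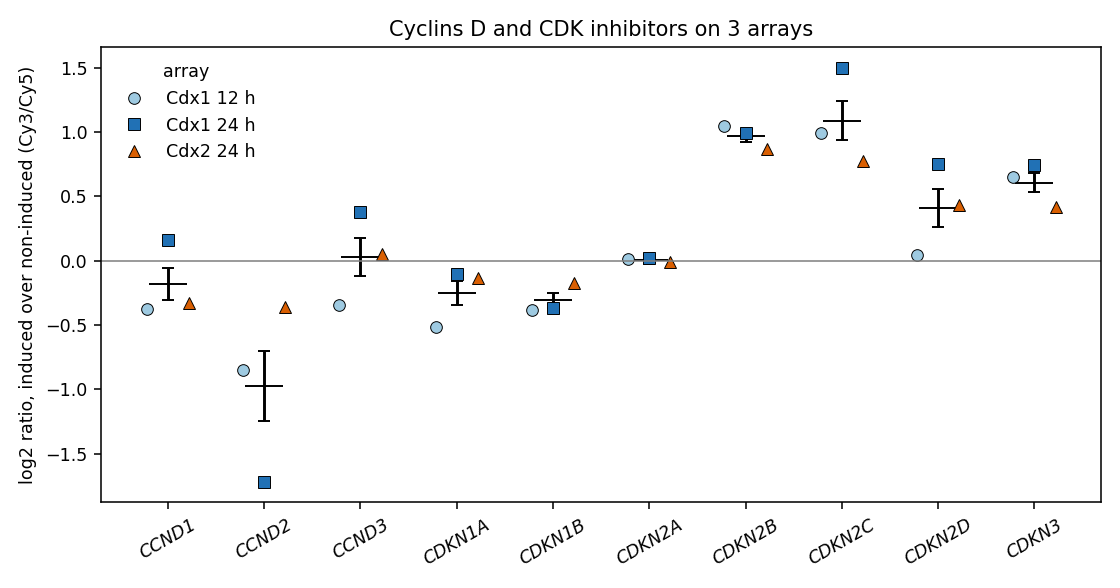
Log2 ratio of induced over non-induced cells (y axis) for the 10 genes (x axis) on the Cdx1 12 h, Cdx1 24 h and Cdx2 24 h arrays (symbols), with the mean and its SE from limma over the 3 arrays (black bars). CDKN2B, CDKN2C, CDKN2D and CDKN3 lie above 0 on every array, and CDKN1A, CDKN1B and CCND2 below 0 on every array. CCND1, CCND3 and, close to it, CDKN2A lie on both sides of 0.

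The DNA just before the start of the 4 called genes is shown because their transcripts are the ones that passed the test. The lines give the 250 bases before a RefSeq start (assembly GRCh38.p14), read 5′ to 3′ along the gene, with motif letters in capitals.
CDKN2B (chr9:22009306-22009555, minus strand): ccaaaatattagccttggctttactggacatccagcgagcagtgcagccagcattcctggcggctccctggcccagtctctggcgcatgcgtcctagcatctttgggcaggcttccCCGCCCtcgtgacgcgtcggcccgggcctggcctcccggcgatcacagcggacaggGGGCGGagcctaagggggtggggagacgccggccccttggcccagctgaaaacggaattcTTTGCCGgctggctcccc
CDKN2C, GC-rich start (chr1:50968456-50968705, plus strand): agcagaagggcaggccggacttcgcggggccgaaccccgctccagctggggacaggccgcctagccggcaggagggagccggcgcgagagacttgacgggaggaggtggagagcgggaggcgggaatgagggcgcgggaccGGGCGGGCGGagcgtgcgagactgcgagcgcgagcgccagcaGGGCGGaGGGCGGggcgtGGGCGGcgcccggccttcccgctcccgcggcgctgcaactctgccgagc
CDKN2C, downstream start (chr1:50969995-50970244, plus strand): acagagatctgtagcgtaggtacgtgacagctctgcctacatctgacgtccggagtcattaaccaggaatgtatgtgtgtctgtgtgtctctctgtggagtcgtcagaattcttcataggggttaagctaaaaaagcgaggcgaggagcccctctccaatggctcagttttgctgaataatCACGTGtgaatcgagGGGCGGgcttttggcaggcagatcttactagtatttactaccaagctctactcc
CDKN3 (chr14:54396757-54397006, plus strand): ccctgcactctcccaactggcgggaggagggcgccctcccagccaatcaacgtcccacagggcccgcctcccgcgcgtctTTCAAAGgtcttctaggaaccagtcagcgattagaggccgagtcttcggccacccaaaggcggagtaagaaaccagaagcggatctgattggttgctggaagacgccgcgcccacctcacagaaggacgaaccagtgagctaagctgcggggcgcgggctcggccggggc
CDKN1B (chr12:12717118-12717367, plus strand): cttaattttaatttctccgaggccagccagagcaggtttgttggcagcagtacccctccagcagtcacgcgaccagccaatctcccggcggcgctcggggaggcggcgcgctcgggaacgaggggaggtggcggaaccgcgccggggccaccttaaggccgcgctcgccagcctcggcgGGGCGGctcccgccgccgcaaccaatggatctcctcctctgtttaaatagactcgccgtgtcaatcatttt
Motifs were searched on both strands of 13 such windows of the 8 genes found in the RefSeq promoter table, which did not include CCND1 and CCND2. None of the 13 held TTTATA or TTTATG, core words of a CDX site (TTTATA is also the reverse complement of a TATA box word). Of 35116 promoter windows of this length, 18.2% did. The GC content of the 13 ran from 45.6% to 77.2%, and some windows belong to 1 gene. The share over all windows was not matched for either, so no lack of CDX sites is read from this. The CDKN2B window held an E2F word (TTTGCCG, where 7.33% of all windows held this word or TTTCCCG or TTTGGCG or TTTCGCG) 18 bases before the start. The GC-rich CDKN2C window held 5 GC boxes (GGGCGG, in 42.6% of all windows), whereas the downstream CDKN2C window held an E-box (CACGTG, in 6.34%) 69 bases before the start and 1 GC box. A further CDKN2C start with an E-box 220 bases before it is not printed. In CDKN3 the capitals TTCAAAG join 2 overlapping words, TTCAAA, the reverse complement of the cell cycle word TTTGAA (this or TTCGAA lay in 14.3% of all windows), 170 bases before the start, and TCAAAG, the reverse complement of the TCF/LEF word CTTTGA (this or CTTTGT lay in 22.8%), 169 bases before it. The remaining TCF/LEF words lay before a distal start of CCND3, 71 and 6 bases away. CDKN1B held a single GC box. These are matches of letters and no binding was measured.

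CCND2, which encodes cyclin D2, gave the lowest ratios of the 10 genes. Its probe read 464, 236 and 90.0 units of brightness in induced cells (Cdx1 12 h, Cdx1 24 h and Cdx2 24 h), against 454, 361 and 46.8 in non-induced cells. Cy3 readings were higher than Cy5 readings in general, by 1.70, 1.89 and 1.39 times at the brightness of CCND2 after background correction, and normalization removes this dye trend. The log2 ratios were -0.85, -1.72 and -0.36, with a mean of -0.97 ± 0.27 (SE from limma, n = 3 arrays, adjusted p = 0.0626), so the direction was shared by 3 of 3 arrays but did not pass the test. CCND2 was past 2-fold lower on the Cdx1 24 h array only, and without the offset also on the Cdx1 12 h array (-1.01). The call depended on the processing. CCND2 passed the test in 7 of 13 alternatives, among them the authors' own deposited ratios (-0.98, -2.15 and -0.95, mean -1.36, adjusted p = 0.0125) and no offset on the brightness (mean -1.33, adjusted p = 0.0115), and over all 13 the adjusted p ran between 0.0115 and 0.169. Without the Cdx1 24 h array, the mean was -0.60.

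CCND2 was also dimmer in the Cdx2 clone than in the Cdx1 clone before induction, which passed the test under some scalings of the brightness but not as first run. In non-induced cells its normalized log2 brightness was 6.76 in the Cdx2 clone, against 9.18 (12 h) and 9.11 (24 h) in the Cdx1 clone, a difference of -2.39 ± 0.07 (SE, 1 residual degree of freedom) or 5.25 times less. It was the 7th dimmest of 18213 probes by this difference, and 0.412% of all probes were at least 2-fold dimmer in the Cdx2 clone. No probe passed the test between the clones (limma, 0 of 18213, 0%, and 2152 with an unadjusted p under 0.05), with an adjusted p of 0.363 for CCND2. With Cy5 centred on its median, 141 probes passed, and with the blank mean subtracted, 38 passed, CCND2 among them with differences of -2.25 (adjusted p = 0.00201) and -3.25 (adjusted p = 0.0201). After induction the order was the same, with 6.40 in Cdx2-induced cells at 24 h, against 8.33 and 7.40 in Cdx1-induced cells at 12 h and 24 h. The CCND2 ratio on the Cdx2 array thus rested on a dim probe, at 1.63 times the background threshold in Cy3 and 4.06 times in Cy5. The 10 measured genes nearest to CCND2 along its chromosome differed between the non-induced clones by -0.44 to 0.48 on the log2 scale, with a median of 0.04. The error in these tests was the scatter between the Cdx1 arrays at 12 h and 24 h, which are of 1 clone. It held no spread between clones or between cultures of the Cdx2 clone, so passing does not establish a clone difference. The clone, the array and the culture cannot be told apart here.

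**Figure D2:**
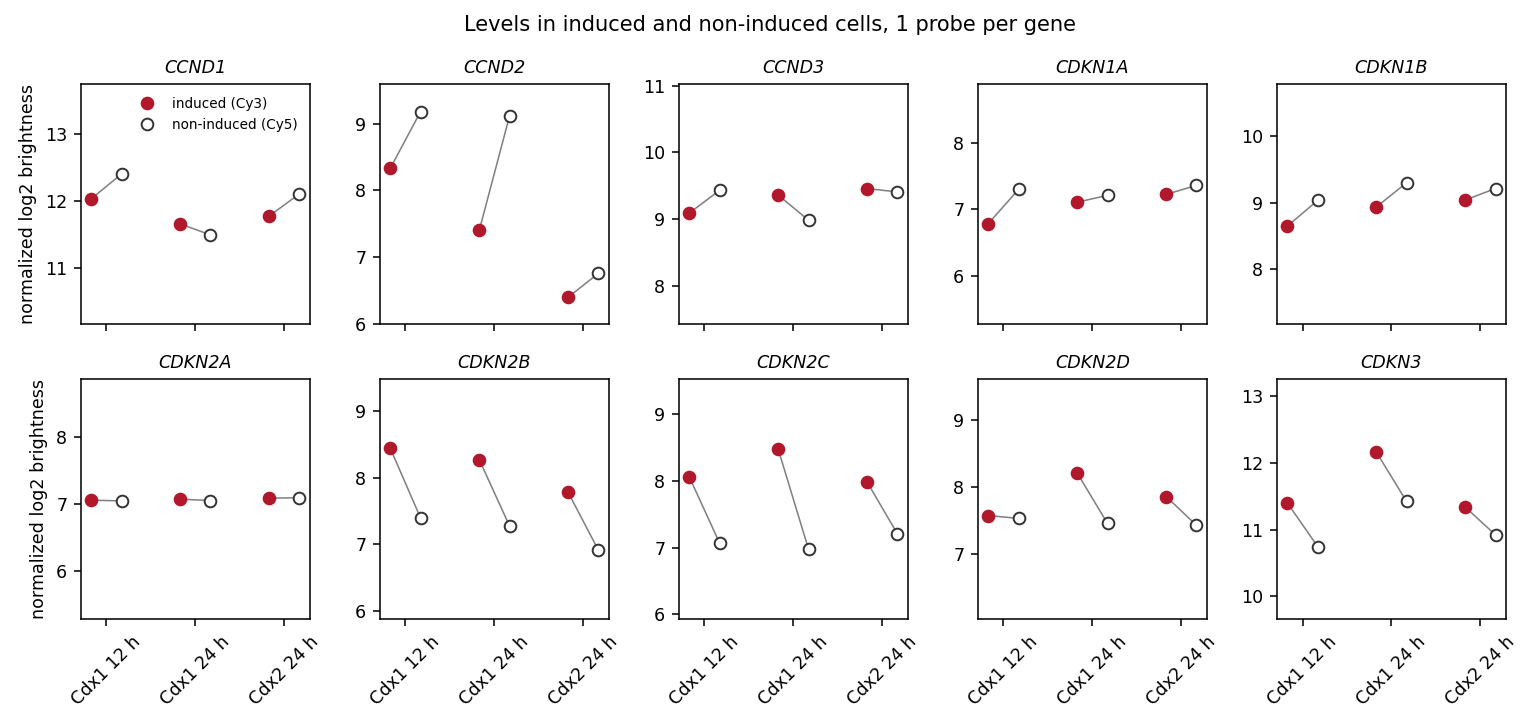
Normalized log2 brightness (y axis, the same span in every panel) of the probe above background of each gene in induced (filled, Cy3) and non-induced cells (open, Cy5) on the 3 arrays (x axis), with lines joining the channels of 1 array. CCND2 is the gene whose level differs most between arrays, with non-induced cells at 6.76 in the Cdx2 clone against 9.18 and 9.11 in the Cdx1 clone, and the CDKN2A points lie level on all arrays.

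CCND1, which encodes cyclin D1 and is a known target of β-catenin, was far above background in every channel. It read 6227, 4540 and 4607 units in induced cells (Cdx1 12 h, Cdx1 24 h and Cdx2 24 h), against 4406, 1964 and 2839 in non-induced cells. This gave log2 ratios of -0.37, 0.16 and -0.33, with a mean of -0.18 ± 0.12 (adjusted p = 0.338), so the arrays did not share a direction. Without the Cdx1 24 h array, CCND1 was called lower (mean -0.35, adjusted p = 0.0307). With the loess step, which removes the dye trend, replaced by median centring of the offset brightness (below, without loess), its mean was 0.33 and did not pass. The authors' values, which also had no loess, gave a mean of -0.22. Between the Cdx1 arrays it was the non-induced cells that differed more, with a normalized log2 level of 11.49 at 24 h against 12.41 at 12 h, while the induced cells stood at 11.66 at 24 h against 12.03 at 12 h. A drop of 0.9 or more in non-induced cells was found for 0.0714% of the probes.

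CCND3, which encodes cyclin D3, likewise differed in sign between the Cdx1 arrays. Its probe read 800, 934 and 888 units in induced cells, against 542, 315 and 400 in non-induced cells. Ratios on the log2 scale were -0.34, 0.38 and 0.05 (mean 0.03 ± 0.15, adjusted p = 0.906). Without loess it was called higher, with a mean of 0.50 (adjusted p = 0.0424), whereas its mean was 0.02 in the authors' values. Without the Cdx1 24 h array its mean was -0.15. None of the 3 cyclin D genes thus passed the shared test as run.

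Of the CIP/KIP inhibitors, CDKN1B (p27) fell by a small amount. Its probe read 580, 698 and 656 units in induced cells, against 405, 404 and 346 in non-induced cells. The log2 ratios were -0.39, -0.36 and -0.17, with a mean of -0.31 ± 0.06 (adjusted p = 0.0242). With the authors' values, which also had no loess, the call held (mean -0.36, adjusted p = 0.043). With median centring of the offset brightness in place of loess, the call was lost (mean 0.15, adjusted p = 0.139). It was also lost without the Cdx1 12 h array (adjusted p = 0.101), without the Cdx1 24 h array (adjusted p = 0.0891), with the blank mean subtracted (adjusted p = 0.0521) and with a larger offset (adjusted p = 0.0527), and over 13 alternatives the adjusted p ran between 0.0116 and 0.139.

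CDKN1A (p21), an inhibitor known to be induced when cells arrest, was dim, at 138, 182 and 171 units in induced cells against 98.9, 76.5 and 80.8 in non-induced cells. Its log2 ratios of -0.51, -0.10 and -0.14 were all below 0 but did not pass the test (mean -0.25 ± 0.10, adjusted p = 0.126), nor did they in any of 13 alternatives. The Cdx1 12 h array gave the lowest of the 3 values.

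Among the INK4 inhibitors, CDKN2B and CDKN2C rose. CDKN2B, which encodes p15 and is known as a gene induced by TGF-β, gave the most even change of the 4 called genes. Its probe read 471, 420 and 254 units in induced cells, against 105, 76.3 and 47.3 in non-induced cells. Raw Cy3 readings exceeded raw Cy5 readings for CDKN1B as well, so only the normalized ratios are compared. The log2 ratios were 1.04, 0.99 and 0.87, or 2.06-fold, 1.99-fold and 1.82-fold, with a mean of 0.97 ± 0.05 (adjusted p = 0.00624). CDKN2B was past 2-fold on the Cdx1 12 h array and just under it on the Cdx1 24 h array. It was called in all 13 alternatives, with means of 0.54 to 1.36 and adjusted p-values between 0.000678 and 0.0328. The offset added to the brightness shrinks ratios of dim probes, and without it the log2 ratios of CDKN2B were 1.28, 1.29 and 1.36. In the non-induced Cdx2 clone CDKN2B was dimmer than in the Cdx1 clone by 0.42 ± 0.09 on the log2 scale, which did not pass the test (adjusted p = 0.383).

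CDKN2C, which encodes p18, had the highest mean ratio of the 10 genes. The probe above background read 354, 482 and 297 units in induced cells, against 77.2, 54.9 and 64.8 in non-induced cells. Its log2 ratios were 0.99, 1.5 and 0.78, or 1.99-fold, 2.82-fold and 1.71-fold, with a mean of 1.09 ± 0.15 (adjusted p = 0.0132). The Cdx1 24 h array gave the highest value and was the only one past 2-fold as processed here. Without the offset on the brightness, the log2 ratios were 1.32, 2.08 and 1.08, past 2-fold on every array. A second CDKN2C probe was not above background in any of the 6 channels (61.6, 62.4 and 52.6 units in induced cells, against 14.2, 12.8 and 11.3 in non-induced cells), and thus carries no information on the change. When it was averaged in, the mean was 0.55 (adjusted p = 0.0169). The call was lost in 1 of 13 alternatives, without the Cdx1 12 h array (mean 1.14, adjusted p = 0.0567), and the adjusted p otherwise ran down to 0.0023.

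CDKN2D, which encodes p19, lay above 0 on each array but did not pass the test. Its probe read 251, 402 and 271 units in induced cells, against 121, 90.6 and 81.3 in non-induced cells. CDKN2D log2 ratios were 0.04, 0.75 and 0.43 (mean 0.41 ± 0.15, adjusted p = 0.107), with the Cdx1 24 h array far above the Cdx1 12 h array. Without loess it was called higher (mean 0.70, adjusted p = 0.0186). In the authors' values, which also had no loess, it was not called (mean 0.52, adjusted p = 0.0833).

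CDKN2A, next to CDKN2B on the same chromosome arm, gave flat ratios. The locus encodes p16 and, from another start, ARF, and the annotation does not say which transcript the probe reads. The probe read 167, 176 and 154 units in induced cells, against 76.5, 65.5 and 62.7 in non-induced cells. CDKN2A log2 ratios were 0.01, 0.02 and -0.01 (mean 0.01 ± 0.03, adjusted p = 0.881), at 2.59 to 2.78 times the background threshold in Cy3. Without loess the mean was 0.17 and was called higher (adjusted p = 0.0353). Neither MTAP, a metabolic gene on the other side of CDKN2A (log2 ratios 0.07, -0.34 and -0.24, adjusted p = 0.228), nor CDKN2A was called. Without loess MTAP too was called higher (mean 0.32, adjusted p = 0.0214). In the authors' values, which also had no loess, the MTAP ratios were 0.09, -0.41 and -0.26. CDKN2A had a mean of -0.06 there and was not called (adjusted p = 0.611).

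CDKN3, the phosphatase of CDK2, rose on all 3 arrays and was far above background. Its probe read 4061, 6528 and 3338 units in induced cells, against 1375, 1914 and 1191 in non-induced cells. Log2 ratios were 0.65, 0.74 and 0.42, or 1.57-fold, 1.67-fold and 1.34-fold, with a mean of 0.60 ± 0.07 (adjusted p = 0.011). The Cdx2 array gave the lowest of the 3 values. The call was lost only without the Cdx1 12 h array (mean 0.58, adjusted p = 0.0548), and the other 12 alternatives kept it. CDKN3 was brighter at 24 h than at 12 h in both states of the Cdx1 clone, by 0.76 in induced and 0.68 in non-induced cells on the log2 scale, and 0.966% of the probes were brighter by 0.6 or more in non-induced cells.

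**Figure D3:**
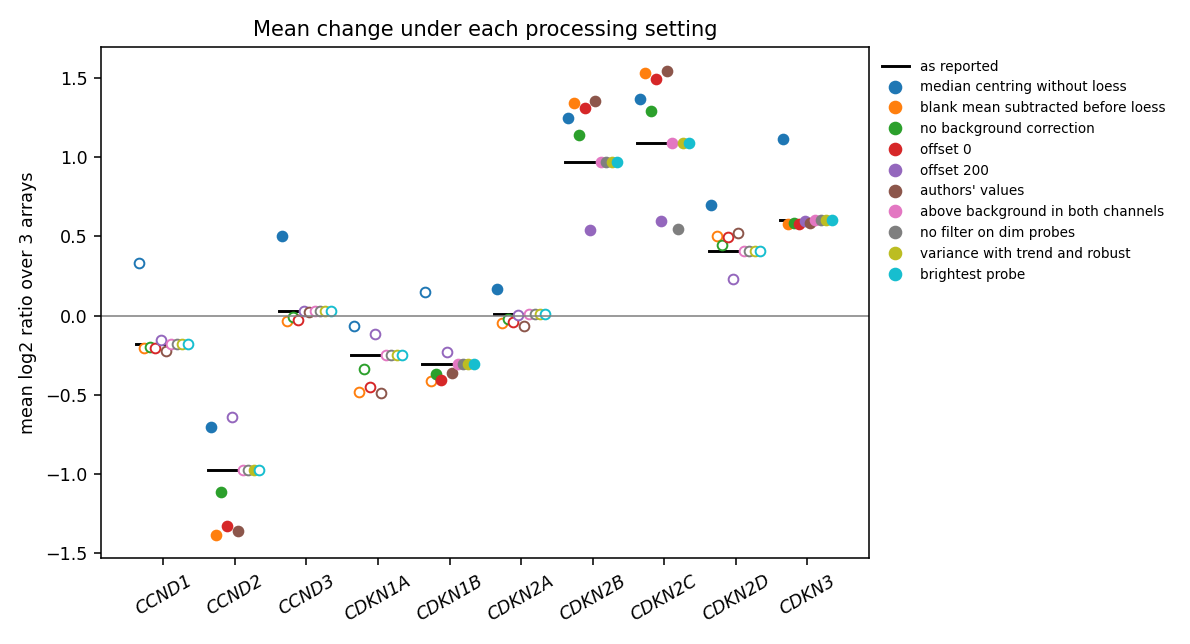
Mean log2 ratio over the 3 arrays (y axis) of each gene (x axis) as reported (black bar) and under 10 processing alternatives (circles, filled where the adjusted p is under 0.05). CDKN2B, CDKN2C and CDKN3 stay above 0 throughout, between 0.54 and 1.55, whereas CDKN1B and CCND1 lie above 0 only for median centring without loess.

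The response to Cdx2 was compared with that to Cdx1 as the Cdx2 array minus the mean of both Cdx1 arrays. No gene passed this test (limma, 0 of 16030, 0%, and 844 with an unadjusted p under 0.05), and with the blank mean subtracted 11 passed, none of them among the 10 genes. CCND2 had the largest difference of the set, 0.92 ± 0.41 (adjusted p = 0.961), as its ratio was -0.36 with Cdx2 against -0.85 and -1.72 with Cdx1. Over 10 alternatives this difference ran between 0.54 and 0.92. With the authors' values the CCND2 ratio was -0.95 with Cdx2, against -0.98 (12 h) and -2.15 (24 h) with Cdx1. CDKN2C differed by -0.47 ± 0.25 and CDKN3 by -0.28 ± 0.10 (adjusted p = 0.999 and 0.941), and the other 7 lay between -0.23 and 0.20. At 24 h alone, the Cdx2 ratio minus the Cdx1 ratio was 1.36 for CCND2, and a difference of 1 or more was found for 0.137% of all genes. With 1 array a side this carries no test. A difference that misses the threshold at 1 residual degree of freedom does not show that Cdx1 and Cdx2 acted alike.

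Between 12 h and 24 h of Cdx1 there was 1 array each, hence no test. The log2 ratio of CCND2 changed by -0.87, and that of CCND3 by 0.72, of CDKN2D by 0.71, of CCND1 by 0.54 and of CDKN2C by 0.51. An absolute change of 0.5 or more was found for 3.19% of all genes and for 5 of the 10 here. CDKN1A changed by 0.41, and the ratios of CDKN1B, CDKN2A, CDKN2B and CDKN3 differed by at most 0.09. For CCND2 the induced cells carried the change, at 7.40 at 24 h against 8.33 at 12 h, with 9.11 and 9.18 in non-induced cells.

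Genes around these members were read from a list of 41, of which 38 had a probe and were tested. Of the 38, 8 were called higher (18.7% of all genes), 9 lower (12.1%) and 21 not, and their median of mean log2 ratios was -0.05 against 0.01 over all genes. Leaving out any 1 array lowered these counts to 4 or 5 higher and 5 or 6 lower, and subtracting the blank mean gave 2 higher and 7 lower. CDK4, the kinase partner of D-type cyclins, was the lowest. It gave log2 ratios of -0.48, -1.01 and -0.75 (mean -0.75 ± 0.11, adjusted p = 0.0147), and its 2 probes agreed within 0.06 on each array. CDK6, the other partner, was not called (mean -0.23, adjusted p = 0.147). Among later cyclins, CCNE1 (cyclin E1, S-phase entry) and CCNA2 (cyclin A2, S and G2 phases) were lower, with means of -0.33 and -0.21, and CCNB1 (cyclin B1, mitosis) was higher, with a mean of 0.36. The 2 CCNE1 probes had means of -0.49 and -0.18. CCNE2 (cyclin E2) gave 0.71, 0.66 and 0.04 and was not called (mean 0.47, adjusted p = 0.0852), but passed in 3 of 13 alternatives.

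Of the 13 RB and E2F genes, 3 were called higher, 4 lower and 6 not (18.7% and 12.1% of all genes were called higher and lower). RB1, the substrate of cyclin D-CDK4, was higher (0.49, 0.82 and 0.34, mean 0.55 ± 0.10, adjusted p = 0.0247), as were its relative RBL2 (p130, mean 0.36) and TFDP2, a dimer partner of E2F proteins (mean 0.41). The RBL2 probes differed, with 0.44, 0.85 and 0.42 for one and 0.00, 0.33 and 0.08 for the other. E2F4, E2F5 and E2F6, which mainly repress, were lower, with means of -0.44, -0.38 and -0.32, and E2F8 was the other lower one. E2F1, E2F2, E2F3 and E2F7 were not called. CDKN1C (p57), the remaining CIP/KIP inhibitor, gave -0.25, 0.66 and 0.40 and was not called (mean 0.27, adjusted p = 0.346).

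Of regulators of these genes, FOXO1, a transcription factor that can activate CDKN1B, had the highest mean of the list (0.61, 1.37 and 1.25, mean 1.08 ± 0.17, adjusted p = 0.0164), while its relative FOXO3 was lower (mean -0.32). MDM2, a ubiquitin ligase, was higher by an even amount (0.60, 0.60 and 0.72, mean 0.64 ± 0.04, adjusted p = 0.00634). SMAD4, the shared mediator of TGF-β signals, and FBXW7, the ubiquitin ligase subunit of cyclin E, were both called with a mean of 0.27. KLF4, an activator of CDKN1A in the gut, was lower (mean -0.44). SKP2 and CKS1B, which direct p27 to degradation, had means of -0.08 and -0.01 and were not called. With median centring of the offset brightness in place of loess, 20 of the 38 genes were called higher and 2 lower. There, 5 genes called lower turned above 0 (CCNE1, CCNA2, E2F5, E2F6 and E2F8), CCNA2 to a called mean of 0.31. In the authors' values, which also had no loess, these 5 stayed below 0 (-0.38, -0.23, -0.48, -0.45 and -0.30). CCNA2 and E2F8 were not called in the authors' values. Under the median centring, E2F1 and E2F2 were called higher (0.37 and 0.31). Of the other genes called lower, CDK4 (-0.22), E2F4 (-0.05), KLF4 (-0.13) and FOXO3 (-0.20) stayed below 0 there, and FOXO3 alone of these kept its call (adjusted p = 0.0189, against 0.1 for CDK4).

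**Figure D4:**
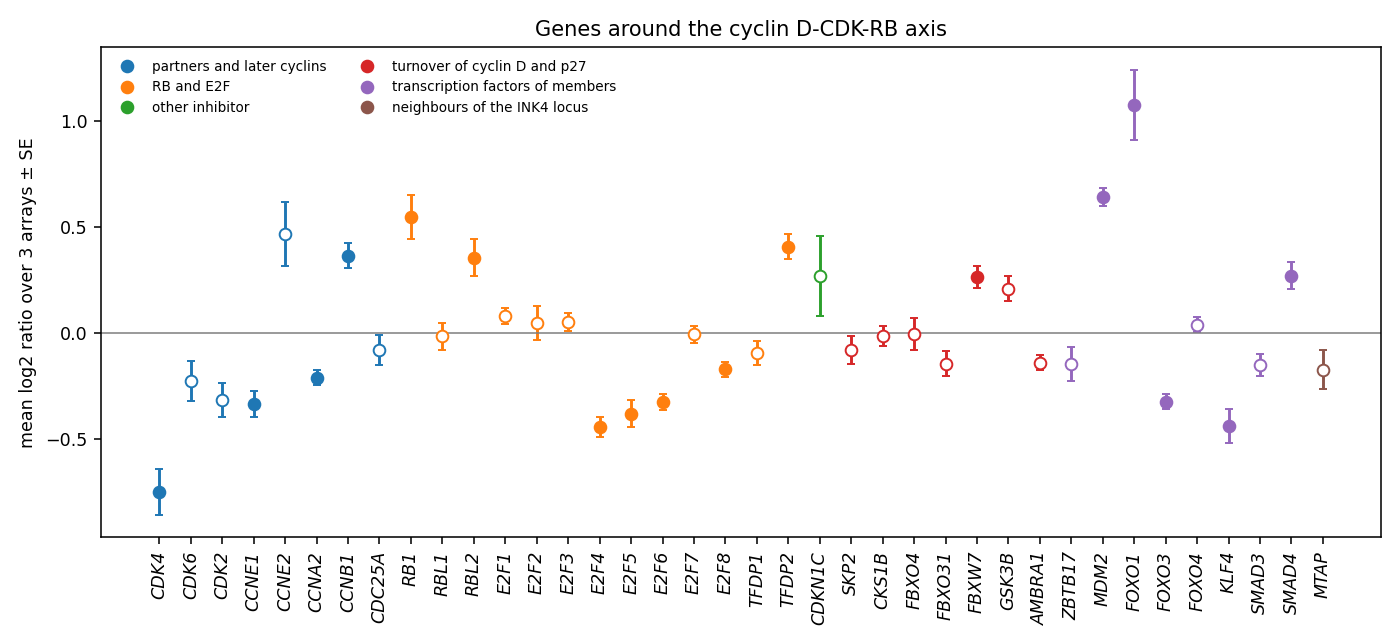
Mean log2 ratio of induced over non-induced cells with its SE (y axis) for the 38 measured genes around the cyclin D-CDK-RB axis (x axis, coloured by group), filled where the adjusted p is under 0.05. CDK4 is the lowest at -0.75 and FOXO1 the highest at 1.08.

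Genes with the most similar ratios were sought for the 3 members that were at least 2-fold changed on any array, by Euclidean distance between the log2 ratios of the 3 arrays. For CDKN2B these were TFAM, SCRN3 and RBM7, at distances of 0.03, 0.04 and 0.08. For CDKN2C they were LIG4, TBK1 and FUBP1, at 0.10, 0.13 and 0.13. CCND2 had no such close match, and its nearest genes IFIT2, NUDT2 and MRPL12 lay 0.36, 0.38 and 0.43 away. With 3 points a gene this is a description of the arrays.

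Across the series, 86.4% to 87.5% of gene probes were above background in both channels, no probe of the 10 genes was saturated, and the SD between 2 probes of a gene was 0.17 to 0.22 on the log2 scale. All 7 measured markers of a colon epithelial line were above background in all 6 channels (summed brightness 55009 to 77513 in induced and 49326 to 71969 in non-induced cells). Of these 7, KRT18, KRT19, VIL1 and CDH1 were called lower with induction, with mean log2 ratios of -1.87, -0.89, -0.79 and -0.43, EPCAM and KRT20 were called higher (0.23 and 0.70), and their part in the results above was not tested. Of markers of other cell types, 3 of 7 (DCN, VIM and VWF) were above background in all 6 channels. The summed brightness of the list was 743 to 877 in induced and 225 to 287 in non-induced cells. A DCN probe was the brightest, at 260, 240 and 211 units in induced cells (Cdx1 12 h, Cdx1 24 h and Cdx2 24 h) and 143, 111 and 105 in non-induced cells. The other DCN probe and those of COL1A1, COL1A2 and leukocytes (PTPRC, CD3E) lay at or near the background threshold. The human CDX2 probe gave log2 ratios of 0.64 with Cdx2, against -0.46 (12 h) and 0.03 (24 h) with Cdx1, and whether it reads the mouse transgene was not tested.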

How the data were processed

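RNA of 3 sets of induced (Cy3) and non-induced (Cy5) DLD1-TetOff cells was amplified to amino allyl aRNA, labelled and hybridised to TORAY 3D-Gene arrays. Spot intensity at 532 nm (Cy3) and 635 nm (Cy5), not background-subtracted, was read from the scanner files that the authors deposited. The authors' deposited value table holds log2 ratios. Set against the scanner values, each column was the log2 Cy3/Cy5 ratio less the mean of blank spots in each channel, with an array median of 0, and it served as an alternative. Columns of other samples numbered 0.

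Intensities were corrected by normexp (offset 50) and normalized by loess within arrays (span 0.3) using limma 3.58.1 (R 4.3.3). Spots that the scanner marked as poor (1, 6 and 3 gene probes) were dropped on all arrays. The background threshold was 2 SD over the mean of 2680 blank spots, trimmed by 5% at each end, or 55.3 to 68.1 units in Cy3 and 11.5 to 14.5 in Cy5. Probes of a gene that passed this threshold on all arrays, in 1 channel or both, were averaged. The number of arrays limits the precision.

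The change shared by 3 arrays was tested with lmFit and eBayes (two-sided, Benjamini-Hochberg over all genes, threshold 0.05). Cdx2 was set against the mean of both Cdx1 arrays, and the non-induced clones were compared per probe on normalized Cy5 (loess, then Aquantile). Each had 1 residual degree of freedom, from the difference between the Cdx1 arrays. Platform symbols were matched to RefSeq names (17238 probes current, 2899 updated, 98 ambiguous, 1 unmatched), and motifs were read from RefSeq promoters of GRCh38.p14. The array's own genome build is not given in the sources used here. Tests were checked on simulated data.

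Alternatives were other background corrections, offsets, normalizations, filters, variance estimates and probe choices, the authors' values, a 1.5-fold threshold and leaving out each array. The 10 genes and all lists were chosen with earlier results of these data known. Genes named are all 10 members, up to 8 called genes each way of the list of related genes, and the 3 genes nearest to each member changed at least 2-fold on any array. CDK6, CCNE2, E2F1, E2F2, E2F3, E2F7, E2F8, SKP2, CKS1B, CDKN1C, MTAP and the cell type markers were named after their values were seen.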

Additional observations from a re-analysis of the deposited data

Results flagged for a closer look

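The CCND1 ratio had opposite signs on the Cdx1 arrays, with a log2 ratio of 0.16 at 24 h against -0.37 at 12 h. CCND3 did so too, with 0.38 at 24 h against -0.34 at 12 h. CDKN2A lay at -0.01 on the Cdx2 array against 0.01 and 0.02 on the Cdx1 arrays, values that differ by less than the SD between 2 probes of a gene (0.17 to 0.22). With 1 array a group none of these differences was tested, and for CDKN2A the opposite signs amount to 0.02 on the log2 scale.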

How the results depend on the processing

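CDKN2B kept its call in all 13 alternatives, CDKN2C and CDKN3 in 12 of 13, and the cause of the changes below was not tested. The counts as reported were 3 genes called higher and 1 lower of the 10, 2998 and 1935 of all genes, 0 genes for Cdx2 against Cdx1, 0 probes between the non-induced clones, and 1, 2 and 0 members at least 2-fold changed on the Cdx1 12 h, Cdx1 24 h and Cdx2 24 h arrays. With median centring of the offset brightness in place of loess, 6 members and 6372 of all genes were called higher. There, 3, 5 and 2 members were at least 2-fold changed, and CDKN1B turned to 0.15 (gene and probe). In the authors' values, which also had no loess, CDKN1B stayed at -0.36. With the blank mean subtracted, 11 genes passed for Cdx2 against Cdx1, and 3 members (Cdx1 12 h) and 2 (Cdx2) were at least 2-fold changed. Without background correction, 2 members were lower and 2 (Cdx1 12 h) and 1 (Cdx2) at least 2-fold changed. With an offset of 0, these were 2 lower, then 3 and 2. With the authors' values they were 2 lower, then 2 and 2. An offset of 200 left 0 members lower, 1908 of all genes higher and 1233 lower, and 0 (Cdx1 12 h) and 1 (Cdx1 24 h) members at least 2-fold changed. Without a filter on dim probes 1 member was at least 2-fold changed at Cdx1 24 h, since the dim CDKN2C probe is then averaged in. A variance estimate with trend and robust settings gave 2 members lower. At 1.5-fold, 4, 5 and 2 members were changed. Leaving out 1 array at a time gave 1 to 3 members higher and 0 to 2 lower, and 1391 to 2239 of all genes higher and 713 to 1203 lower, the lowest of each without the Cdx1 12 h array, where fewer arrays carry the test. The non-induced clones gave 141 probes with Cy5 centred on its median and 38 with the blank mean subtracted. No paired analysis between groups was possible because each group held 1 array. The log2 ratios already use the pairing of induced and non-induced cells within each array.

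Signal over background limits the dim genes. CDKN1A, CDKN2A and, on the Cdx1 24 h and Cdx2 arrays, CCND2 lay within a few times the Cy3 threshold, where the offset shrinks ratios. CDKN2D came down to 4.06 times it (Cdx1 12 h), and CDKN2B and CDKN2C to 4.59 and 5.38 times (Cdx2). Without the offset the means of CDKN2B and CDKN2C were 1.31 and 1.49, against 0.97 and 1.09 as reported. Direction rests on the dye labels, and dye, DOX and induction cannot be told apart.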
